A study of Mus musculus with 8 samples.

Results

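Nuclear receptors are transcription factors that bind small lipid-soluble ligands and act directly on DNA. The 9 receptors described here are the thyroid hormone receptors Thra and Thrb, the retinoic acid receptors Rara, Rarb and Rarg, the retinoid X receptors Rxra and Rxrb, the vitamin D receptor Vdr and the glucocorticoid receptor Nr3c1. They were found by gene symbol among the 28239 symbols of the count table, where each of the 9 had a single row. The list was selected on library-scaled counts with the comparison of these same libraries already known, so the difference between the groups is given for each receptor as a description and not as a test.

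The libraries came from regulatory T cells (Tregs) made in culture. Naive CD4+ T lymphocytes were taken by negative magnetic selection from spleens of C57BL/6 mice, with 4 wild-type (WT) animals and 4 animals labelled Alox15-/-, a gene deletion that the sources used here restrict to no cell type. The study's methods name different suppliers for WT and Alox15-deficient mice, so supplier and genotype cannot be told apart. Both groups were cultured for 2 days with IL-2 at 100 U/ml, TGF-beta at 5 ng/ml and beads that engage CD3 and CD28. The study used mice of 10 to 12 weeks of age. Each library is labelled as a separate mouse, and MACE-seq, which counts tags near the 3′ end of polyadenylated transcripts, gave between 3723151 and 9538962 counts per library.

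Alox15, the lipoxygenase that the genotype removes, was measured at 67.2 ± 3.18 CPM (counts per 1000000; SD, n = 4) in libraries labelled Alox15-/- and at 5.31 ± 3.61 CPM (SD, n = 4) in the WT libraries. This order goes against the label. Counts near the 3′ end can come from a transcript with a deletion elsewhere, and the position of the deletion is not given in the sources used here. Whether the labels of the groups were exchanged was not tested. The groups are named by their labels throughout, and every direction given here rests on those labels. Markers of CD4+ T cells and Tregs were high in both groups. Cd3e was at 270 ± 19.7 CPM in the libraries labelled Alox15-/- and 256 ± 7.4 CPM in WT (SD, n = 4 each). Cd4 was at 269 ± 40.0 and 336 ± 11.1 CPM, and every library labelled Alox15-/- was below every WT library. The log2 fold change of Cd4 was -0.32 (SE 0.11, edgeR adjusted p = 0.357). Foxp3 was at 93.4 ± 17.1 and 125 ± 47.4 CPM, the latter with WT replicate 3 at 195 CPM. Markers of other cells differed between the groups. The summed CPM of 8 erythroid markers was 920 to 3522 in the libraries labelled Alox15-/- against 72.3 to 140 in WT, that of 11 listed myeloid and dendritic markers 38.6 to 297 against 6.56 to 12.3, that of 8 mast cell and basophil markers 111 to 332 against 27.0 to 47.6, that of 6 eosinophil markers 20.3 to 72.5 against 1.25 to 10.4, and that of 9 NK and gamma-delta T cell markers 86.0 to 164 against 33.3 to 51.2. The sum of 8 B cell markers was lower, at 6.03 to 9.64 CPM against 10.3 to 26.8 CPM, and so was that of 8 CD4+ T cell and Treg markers, at 2464 to 2656 CPM against 2674 to 2822 CPM. The sum of 2 CD8 markers overlapped, at 12.1 to 21.9 and 21.5 to 31.8 CPM. The defining genes of these other cells were all listed above 0 in at least 1 library, and a further dendritic marker, Siglech, is not among the listed symbols. The part of these cells in the results below was not tested, and in such bulk samples fewer cells of a type and less RNA per cell cannot be told apart.

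Thyroid hormone, retinoic acid and vitamin D receptors sit on DNA mostly as heterodimers with a retinoid X receptor. Without ligand, thyroid hormone and retinoic acid receptors recruit corepressors, and ligand exchanges these for coactivators. The glucocorticoid receptor is held in the cytoplasm by chaperones until hormone is bound and then acts in the nucleus, largely as a homodimer. In T cells retinoic acid is known to favour the induction of Foxp3 by TGF-beta and to induce gut homing receptors, vitamin D restrains inflammatory cytokines, and glucocorticoids repress cytokine genes and kill thymocytes.

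The heterodimers recognise direct repeats of the core motif AGGTCA, with a spacing that depends on the partner, and receptor genes can themselves carry such motifs. Promoter windows were taken from RefSeq sequence of the mouse build GRCm38.p6, in which 7 of the 9 receptors had an entry, with 14 windows in all. The short stretches that follow are those of the windows that hold the core motif or, for Rarb, the known retinoic acid element, and are printed 5′ to 3′ on the strand of the gene with the motif in capitals.
Thrb, chr14:17660764-17660793, plus strand: aggagagttgacAGGTCAagggaatagggc
Rxra, chr2:27709193-27709222, plus strand, motif on the opposite strand: tagaaatgggtgTGACCTgagtaatggtca
Rxra, chr2:27709232-27709261, plus strand: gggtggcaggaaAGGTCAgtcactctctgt
Rarg, chr15:102257730-102257759, minus strand, motif on the opposite strand: agcccaggacacTGACCTctgccagctctg
Rarb, chr14:16575507-16575535, minus strand: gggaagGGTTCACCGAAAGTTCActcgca
The core motif lay 184 bases before the start of the RefSeq transcript of its window in Thrb, 87 and 48 bases before that start in Rxra and 225 bases before it in Rarg. These transcripts need not start where the gene does, and the printed stretches of Thrb, Rxra and Rarb lie inside the span that GENCODE gives the gene. Searched on both strands, it was present in 3 of the 14 windows, and in 14.0% of 32851 mouse promoter windows of the same length. The Rarb element matched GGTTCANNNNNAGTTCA, 53 bases before its RefSeq start, and this pattern occurred in 0.00609% of all windows. The direct repeats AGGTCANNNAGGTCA, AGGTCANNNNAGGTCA and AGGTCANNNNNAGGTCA, whose matches also contain the core motif, occurred in 0.00609%, 0.0152% and 0.00913% of all windows and in 0 of the 14. The glucocorticoid palindrome GNACANNNTGTNC occurred in 0.387% of all windows and in 0 of the 14. A match is a description of letters in the window and not a binding site.

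All 9 receptors passed the filter for low counts (at least 2 CPM in at least 4 libraries), which 12700 genes passed. Their levels spread widely. Over the 8 libraries Rxra had the highest mean CPM, 69.1 ± 16.1 (SD, n = 8), followed by Rara with 65.2 ± 10.8 and Nr3c1 with 60.1 ± 7.65. Rxrb with 44.4 ± 5.94 CPM and Rarb with 30.5 ± 4.16 CPM came next. The remaining 4 were low, with Rarg at 8.90 ± 2.44, Thra at 7.27 ± 1.14, Thrb at 4.38 ± 2.69 and Vdr at 2.16 ± 0.677 CPM. Neighbours in this order overlapped over the libraries except Rarb and Rarg, where every library had more Rarb than any library had Rarg. Tags near the 3′ end depend little on transcript length, but as CPM per kb of exon the order was nearly the same, with 34 of 36 pairs in the same order. On that scale Rara had 14.9 CPM per kb, Rxra 12.6, Rxrb 11.2, Nr3c1 7.82, Rarb 5.80, Rarg 2.09, Thra 1.57, Thrb 0.591 and Vdr 0.382. The third retinoid X receptor, Rxrg, had 0 to 2 counts per library and was not tested. A floor of 3 counts is worth 0.303 to 0.814 CPM in these libraries.

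**Figure D1:**
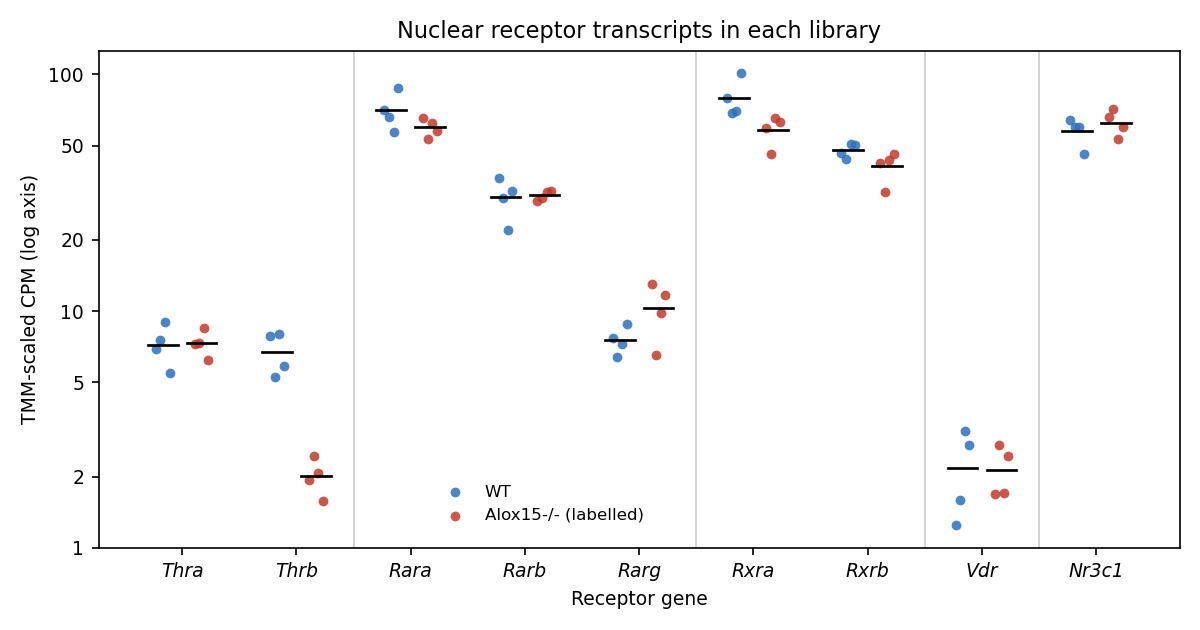
TMM-scaled CPM (log axis) of the 9 receptor genes in each library, WT in blue and libraries labelled Alox15-/- in red, with the mean of each group as a bar. On the log axis Thrb is the receptor with the widest gap between the groups (1.58 to 2.44 CPM against 5.29 to 7.97 CPM), and the groups of Rxra lie next to each other without overlap.

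Of the 9 receptors, Thrb alone passed the adjusted threshold of 0.05 in the edgeR quasi-likelihood fit over all genes, and it was lower in the libraries labelled Alox15-/-. Over all genes tested, 1.24% passed in either direction and 0.197% passed with a lower level. The groups did not overlap in 2 receptors, Thrb and Rxra, both lower, against 5.25% of all genes tested in either direction and 2.51% with a lower level. At an unadjusted p below 0.05 there were 3 receptors, Thrb, Rxra and Rarg, against 7.84% of all genes. Since these counts come from the contrast with which the list was selected, nothing is read from the difference. In all, 3 receptors had a positive and 6 a negative log2 fold change, with a median of -0.052 beside -0.0075 over all genes tested. The median size of the log2 fold change was 0.22 for the receptors and 0.13 for all genes.

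**Figure D2:**
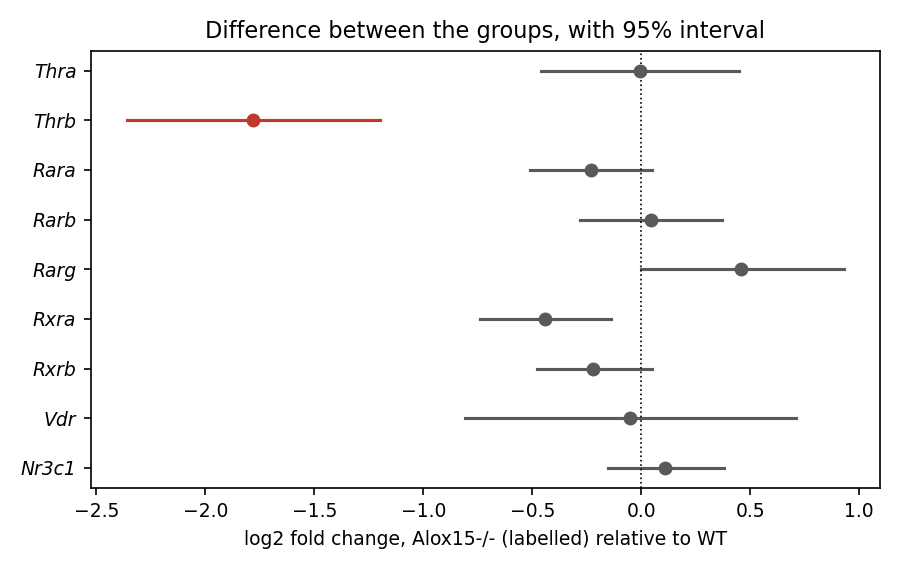
Log2 fold change (libraries labelled Alox15-/- over WT) of each receptor with its 95% interval from the edgeR fit, 4 libraries per group. The interval of Thrb, -2.36 to -1.20, lies apart from those of the other receptors, and that of Rxra, -0.74 to -0.14, also lies below 0.

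Thrb encodes thyroid hormone receptor beta, which carries much of the hormone's action in liver and in the feedback on the pituitary. It lies on chromosome 14 at 17660261 to 18038090 on the plus strand (GRCm38, GENCODE). The level of Thrb in the libraries labelled Alox15-/- was 1.93, 2.44, 2.08 and 1.58 CPM, from 8, 9, 11 and 11 counts. In WT it was 7.84, 5.29, 7.97 and 5.88 CPM, from 50, 33, 79 and 28 counts. Every WT library was above every library labelled Alox15-/-, and the lowest WT value was more than 2 CPM above the highest of the other group. The group means were 2.01 ± 0.356 and 6.74 ± 1.36 CPM (SD, n = 4 each). The fitted log2 fold change was -1.78 (SE 0.272, 95% interval -2.36 to -1.20), which corresponds to a fitted level 3.44-fold higher in WT. Among the 25 genes that passed the threshold with a lower level, this was the 5th largest fall. The counts behind the lower group are few, so that counting error is a large part of the spread of each single library.

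Thra encodes thyroid hormone receptor alpha, the other receptor for the same hormone. It lies on chromosome 11 at 98740638 to 98769006 on the plus strand, 28.4 Mb from Alox15 on the same chromosome. Its level was 7.24, 7.33, 8.51 and 6.19 CPM in the libraries labelled Alox15-/- and 6.90, 7.53, 8.98 and 5.46 CPM in WT. The groups covered the same range, with means of 7.32 ± 0.950 and 7.21 ± 1.46 CPM (SD, n = 4 each). The log2 fold change was -0.007 (SE 0.213, 95% interval -0.46 to 0.45), so that a change of the size seen in Thrb lay outside the interval. The 3′ end of Thra overlaps Nr1d1, the gene of the clock repressor REV-ERB alpha, on the opposite strand over 1075 bases, of which 263 are exonic in both. Whether the counting used strand is not given in the sources used here, and without strand reads of the pair cannot be told apart. Nr1d1 stood at 3.29 ± 0.806 and 3.63 ± 0.860 CPM.

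The balance of the pair followed from these values. Thrb made up 21.1%, 25.0%, 19.6% and 20.4% of the counts of Thra and Thrb together in the libraries labelled Alox15-/-, a mean of 21.5% ± 2.39 (SD, n = 4). In WT it made up 53.2%, 41.2%, 47.0% and 51.9%, a mean of 48.3% ± 5.41 (SD, n = 4). The exact 95% binomial (Clopper-Pearson) intervals, which cover counting error only, were 9.55% to 37.3%, 12.1% to 42.2%, 10.2% to 32.4% and 10.6% to 33.5% for the libraries labelled Alox15-/-. In WT they were 42.6% to 63.6%, 30.4% to 52.8%, 39.3% to 54.9% and 37.8% to 65.7%. The intervals of single libraries thus overlapped in part between the groups, while the shares themselves did not. The summed level of the pair was 7.77 to 10.6 CPM in the libraries labelled Alox15-/- and 11.3 to 16.9 CPM in WT, which do not overlap. WT libraries thus held similar counts of both receptors, and libraries labelled Alox15-/- held mostly Thra.

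**Figure D3:**
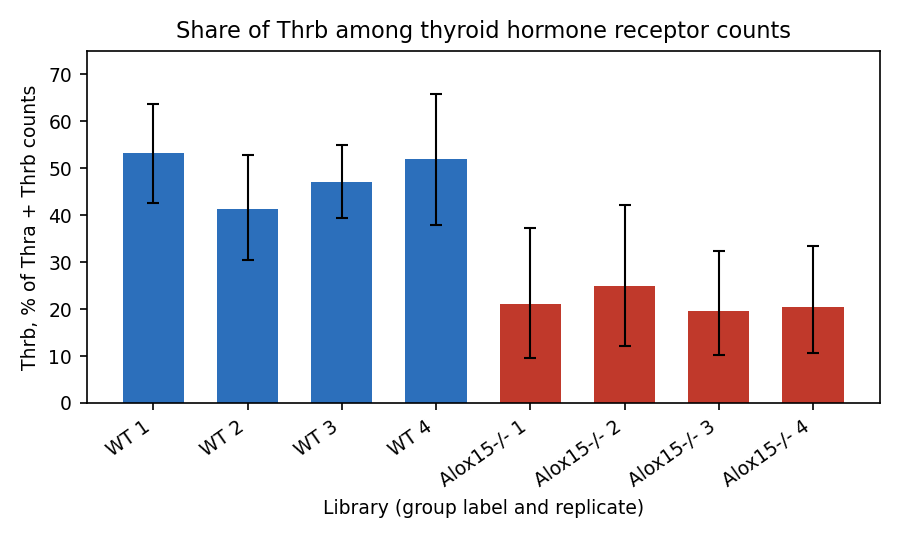
Share of Thrb in the counts of Thra and Thrb (percent) in each of the 8 libraries, with exact 95% binomial intervals for counting error. The shares lie between 19.6% and 25.0% in the libraries labelled Alox15-/- and between 41.2% and 53.2% in WT.

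Within 1 Mb of Thrb there were 7 other tested genes, and 0 passed the adjusted threshold (edgeR, lowest adjusted p = 0.681). None of the 7 reached an unadjusted p below 0.05 in edgeR, DESeq2 or limma-voom, and 0 passed in any of the 3. Their log2 fold changes ranged from -0.45 to 0.45. The nearest, Nr1d2, which encodes the clock repressor REV-ERB beta and lies 166 kb away, had a log2 fold change of 0.02 (SE 0.174). Rpl15, a ribosomal protein gene, had -0.11 (SE 0.0992), and Nkiras1, which encodes an inhibitor of NF-kB signalling, had 0.45 (SE 0.225). The ubiquitin-conjugating enzyme genes Ube2e1 and Ube2e2 had -0.078 (SE 0.0927) and -0.45 (SE 0.251), and the pseudogene Gm6781 had -0.33 (SE 0.360). Without WT replicate 4 the value of Ube2e2 was -0.24, and that of Gm6781 was -0.12 without WT replicate 1 and -0.64 without Alox15-/- replicate 1. Rarb, itself a member of the list, lies 841 kb on the other side. The antisense gene Gm48321 overlaps Thrb over 90772 bases, as do Gm48320 and Gm24140 over shorter stretches, and none of these 3 is among the listed symbols.

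**Figure D4:**
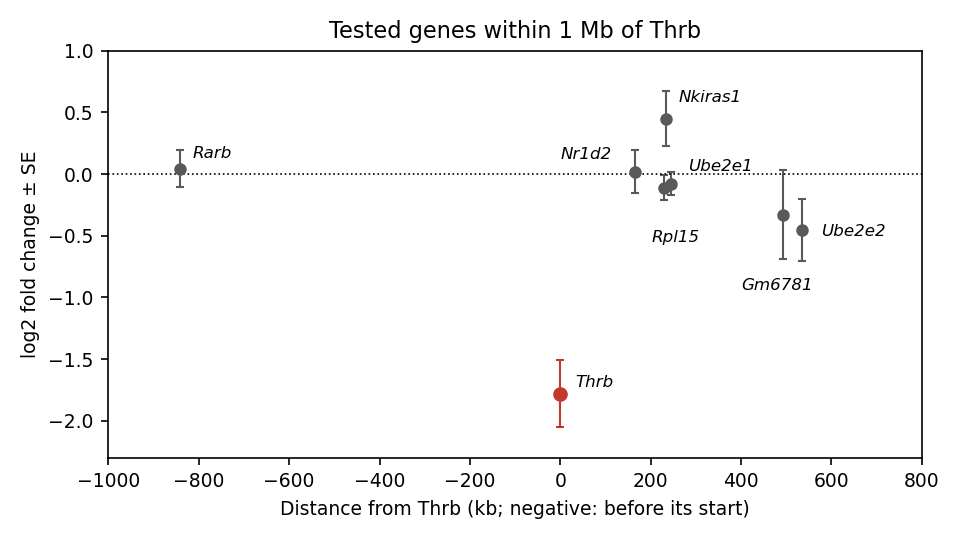
Log2 fold change ± SE (libraries labelled Alox15-/- over WT, edgeR) of Thrb and of the 7 tested genes within 1 Mb of it, against distance in kb. Thrb stands at -1.78, and its neighbours lie between -0.45 and 0.45.

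Retinoic acid receptor genes together were at 101 ± 7.71 CPM in the libraries labelled Alox15-/- and 108 ± 18.1 CPM in WT (SD, n = 4 each). Rara, the main retinoic acid receptor of T cells, lies on chromosome 11 at 98927818 to 98974942, 28.6 Mb from Alox15. It was measured at 65.7, 53.5, 62.6 and 57.8 CPM in the libraries labelled Alox15-/- and at 70.9, 66.1, 57.3 and 87.9 CPM in WT. The third WT library lay among the values of the other group, and the log2 fold change was -0.23 (SE 0.131, 95% interval -0.51 to 0.05), or -0.11 without WT replicate 4.

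Rarg encodes the third retinoic acid receptor, best known from skin and cartilage. Its level was 13, 6.51, 9.83 and 11.7 CPM in the libraries labelled Alox15-/- and 7.68, 6.41, 7.26 and 8.81 CPM in WT. In 3 of the 4 libraries labelled Alox15-/- it was above every WT library, while the second was at the WT level. The means were 10.3 ± 2.82 and 7.54 ± 1.0 CPM (SD, n = 4 each). Its log2 fold change, 0.46 (SE 0.218, 95% interval 0.00 to 0.93), did not pass the adjusted threshold.

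Rarb is itself a retinoic acid target gene, through the element printed above. Its level was 29.2, 30.1, 32 and 32.2 CPM in the libraries labelled Alox15-/- and 36.5, 30.1, 21.9 and 32.3 CPM in WT. The first group lay within the range of the second, with a log2 fold change of 0.044 (SE 0.151, 95% interval -0.28 to 0.37). The value carries a limit of annotation. The 3′ end of Rarb overlaps that of Top2b, a DNA topoisomerase gene on the opposite strand, over 4624 bases, of which 1793 are exonic in both, and Top2b was more abundant at 104 ± 17.6 and 117 ± 17.9 CPM (SD, n = 4 each). The CPM of Rarb amounted to 26.8% to 40.8% of that of Top2b in the libraries labelled Alox15-/- and to 15.4% to 32.4% in WT. Without strand, reads of this pair cannot be told apart, so the place of Rarb in the order of levels is uncertain.

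Retinoid X receptors are the shared partners of the other heterodimers. Rxra was measured at 59.6, 46.1, 65.1 and 62.9 CPM in the libraries labelled Alox15-/- and at 79.3, 68.5, 70 and 101.0 CPM in WT. Every library labelled Alox15-/- was below every WT library, although the highest of the first group and the lowest of the second differed by little. The means were 58.4 ± 8.49 and 79.8 ± 15 CPM (SD, n = 4 each), with a log2 fold change of -0.44 (SE 0.141, 95% interval -0.74 to -0.14). Rxra did not pass the adjusted threshold in the filtered table, and it passed when no genes were filtered.

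Rxrb, on chromosome 17 at 34031812 to 34038399, was measured at 42.2, 31.8, 43.5 and 46.3 CPM in the libraries labelled Alox15-/- and at 46.7, 43.9, 50.6 and 50.2 CPM in WT. In 3 of the 4 libraries labelled Alox15-/- it was below every WT library. The log2 fold change was -0.22 (SE 0.125, 95% interval -0.48 to 0.05), or -0.12 without Alox15-/- replicate 2. The summed level of Rxra and Rxrb was 77.9 to 109 CPM in the libraries labelled Alox15-/- and 112 to 151 CPM in WT. These sums do not overlap, and Rxra made up 58.8% ± 1.01 and 62.2% ± 3.7 of the counts of the pair (SD, n = 4 each).

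Nr3c1 encodes the glucocorticoid receptor, which does not need a retinoid X receptor. Its level was 53.3 to 71.1 CPM in the libraries labelled Alox15-/- against 46.2 to 64.0 CPM in WT. These ranges overlap over most of their length, and the log2 fold change was 0.11 (SE 0.125, 95% interval -0.15 to 0.38), or 0.03 without WT replicate 4. Vdr, the vitamin D receptor, was close to the limit of the filter, with 7, 10, 9 and 17 counts in the libraries labelled Alox15-/- and 8, 10, 31 and 13 counts in WT. Its log2 fold change of -0.052 (SE 0.357) has an interval of -0.81 to 0.71, so that at this depth a moderate change in either direction was not detectable. The sum of all 9 receptors was 274 ± 15.6 CPM in the libraries labelled Alox15-/- and 310 ± 25.9 CPM in WT (SD, n = 4 each).

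The genes around the receptors were taken from lists of nuclear receptors, ligand supply, coregulators and target genes. Of 153 genes in these lists other than the 9 members, 85 were tested and 0 passed the adjusted threshold in edgeR, 42 of them having positive and 43 negative log2 fold changes, around a median of -0.0044. At an unadjusted p below 0.05 there were 9 of them, or 10.6%, beside 7.84% of all genes tested. With DESeq2 1 of the 85 passed, Txnip, and with limma-voom 0 passed. Cd4 aside, 44 named genes are no members and did not pass. Of these, 33 had a log2 fold change that moved by over 1.5 times when some library was left out, the 13 that changed sign included.

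Of 39 other nuclear receptor genes, 17 were tested, of which 11 had positive and 6 negative log2 fold changes (median 0.032) and 0 were at an unadjusted p below 0.05. The orphan receptors Nr4a1 and Nr4a3, which are early response genes of T cell receptor signalling, had log2 fold changes of -0.53 (SE 0.307, edgeR adjusted p = 0.738) and -0.45 (SE 0.220, edgeR adjusted p = 0.666). Nr2f6, an orphan receptor that restrains T cell cytokines, had 0.55 (SE 0.277, edgeR adjusted p = 0.686), or 0.35 without WT replicate 2. None of these 3 values passed the threshold in the filtered table. The value of Nr4a1 rested on WT replicate 4, at 419 CPM beside 131 to 153 CPM in the other WT libraries, and without that library its log2 fold change was 0.049. That of Nr4a3 was -0.27 without the same library and -0.70 without Alox15-/- replicate 1.

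Ligand supply and receptor chaperones were represented by 51 genes, of which 23 were tested, 7 higher and 16 lower. For thyroid hormone, 4 of 9 genes were tested and had a median log2 fold change of -0.042. The membrane transporter Slc16a10 had -0.06 (SE 0.255), or 0.27 without WT replicate 4, and Slc7a5, which carries large neutral amino acids as well as the hormone, had -0.07 (SE 0.145). The activating deiodinase Dio2 had 0 to 5 counts per library and was not tested.

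For retinoids, 5 of 20 genes were tested, 1 with a positive and 4 with a negative log2 fold change (median -0.25). Rdh10, the retinol dehydrogenase that takes retinol to retinal, was at 5.84 CPM in the libraries labelled Alox15-/- and 8.85 CPM in WT, with a log2 fold change of -0.61 (SE 0.243, edgeR adjusted p = 0.526), or -0.40 without WT replicate 3. Rdh11, a retinal reductase, had -0.25 (SE 0.114, edgeR adjusted p = 0.616) and Rdh12 had -0.25 (SE 0.311), which was -0.59 without Alox15-/- replicate 4 and -0.062 without Alox15-/- replicate 3. The enzymes that make retinoic acid from retinal were low, with Aldh1a1 at 0 to 2, Aldh1a2 at 0 to 8 and Aldh1a3 at 2 to 15 counts per library, and were not tested. Among them Aldh1a3 was at 1.89 to 2.16 CPM in the libraries labelled Alox15-/- against 0.42 to 0.961 CPM in WT, which do not overlap.

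For vitamin D, Pdia3, a disulfide isomerase also described as a membrane binder of the hormone, was the 1 gene tested of 6 and had a log2 fold change of -0.02 (SE 0.133). The activating hydroxylase Cyp27b1 and the degrading hydroxylase Cyp24a1 had 0 to 2 and 0 to 1 counts per library. For glucocorticoids, 13 of 16 genes were tested, 5 with positive and 8 with negative log2 fold changes (median -0.09). Ppid, a cyclophilin of the receptor's chaperone complex, had -0.23 (SE 0.107, edgeR adjusted p = 0.623). Cyp11a1, the first enzyme of steroid synthesis, had 0.40 (SE 0.262, edgeR adjusted p = 0.773), a value that was 0.092 without Alox15-/- replicate 2 and 0.70 without WT replicate 3. Hsd11b1, which encodes the enzyme that regenerates active glucocorticoid, had 0.32 (SE 0.207, edgeR adjusted p = 0.773), or 0.19 without WT replicate 2.

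Corepressors and coactivators, with 22 genes of which 21 were tested, were nearly balanced, with 9 higher and 12 lower. The 9 corepressors had a median log2 fold change of -0.031 and the 12 coactivators tested had a median of 0.006. Among the corepressors, 3 higher and 6 lower, the largest values were those of the ligand-dependent Nrip1, 0.26 (SE 0.163), and the subunit Tbl1x, -0.18 (SE 0.0954). Among the coactivators, 6 higher and 6 lower, they were those of the acetyltransferase Kat2b, 0.22 (SE 0.175), Ncoa2, 0.20 (SE 0.138), and Ppargc1b, 0.20 (SE 0.231). Sin3a, the scaffold of a deacetylase complex, had 0.09 (SE 0.175).

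Target genes, with Rarb counted among those of retinoic acid, numbered 52, of which 26 were tested, 17 higher and 9 lower, and 6 were at an unadjusted p below 0.05, or 23.1%, beside 7.84% of all genes. Fasn, which encodes fatty acid synthase and is induced by thyroid hormone in liver, had a log2 fold change of -0.35 (SE 0.113, edgeR adjusted p = 0.288), with 192 CPM in the libraries labelled Alox15-/- and 245 CPM in WT. The other tested thyroid hormone targets, Bcl3 and Klf9, had 0.16 (SE 0.224) and 0.02 (SE 0.292). Among retinoic acid targets, the gut homing integrin genes Itgb7 and Itga4 had 0.30 (SE 0.151, edgeR adjusted p = 0.684) and 0.18 (SE 0.243), the latter -0.016 without Alox15-/- replicate 1. The gut homing chemokine receptor gene Ccr9, named after its values were seen, had -0.11 (SE 0.157), and Rai1 had -0.15 (SE 0.161).

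Among vitamin D targets, the anti-inflammatory cytokine gene Il10 was at 20 and 14.0 CPM, a log2 fold change of 0.50 (SE 0.174, edgeR adjusted p = 0.358). Tnfsf11, the gene of RANKL, had -0.25 (SE 0.299), or 0.19 without WT replicate 4, and the checkpoint receptor gene Ctla4 had 0.10 (SE 0.0878). Of 18 glucocorticoid target genes 15 were tested, 10 higher and 5 lower. Txnip, a thioredoxin-binding inhibitor of glucose uptake, had 51.5 CPM in the libraries labelled Alox15-/- and 32.2 CPM in WT, a log2 fold change of 0.66 (SE 0.190, edgeR adjusted p = 0.189). Il7r, the gene of the IL-7 receptor alpha chain, had 0.54 (SE 0.194, edgeR adjusted p = 0.415). Dusp1, a phosphatase of MAP kinases, had -0.51 (SE 0.235, edgeR adjusted p = 0.635), or -0.20 without WT replicate 4, and Tsc22d3, the glucocorticoid-induced leucine zipper, named after its values were seen, had 0.48 (edgeR adjusted p = 0.608), or 0.30 without that library.

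**Figure D5:**
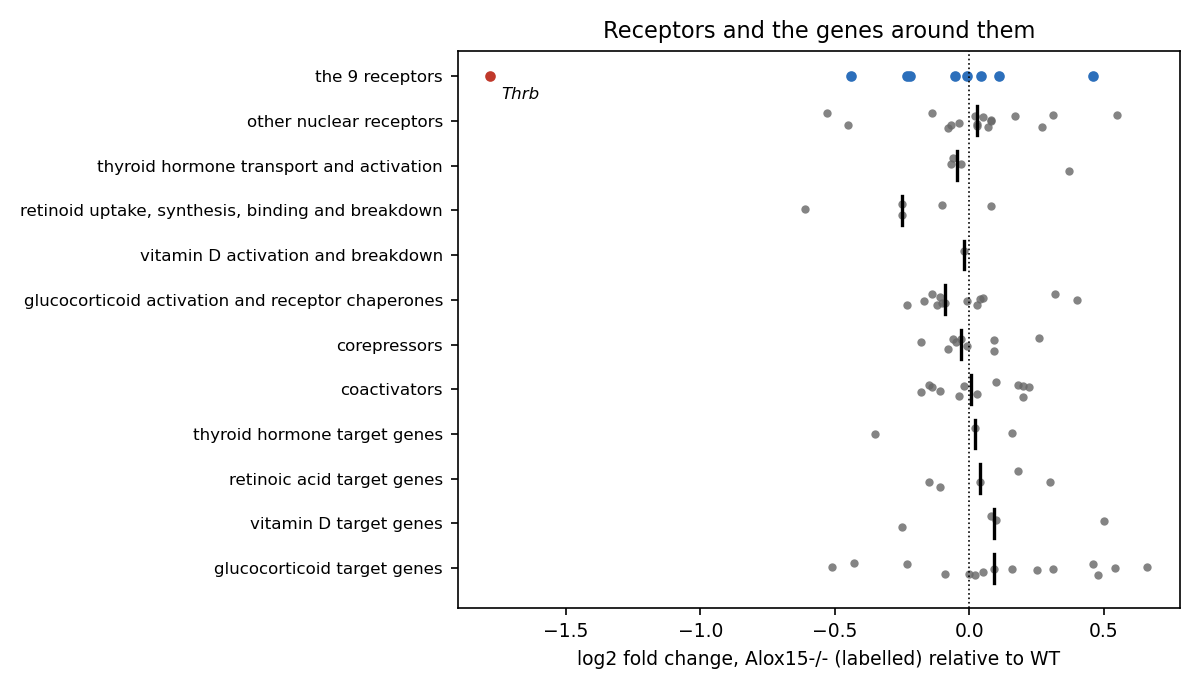
Log2 fold change (libraries labelled Alox15-/- over WT) of each tested gene in the lists around the receptors, with the median of each list as a bar and the 9 receptors in the top row. A gene in more than 1 list has a point in each, and Rarb also stands among the retinoic acid targets. Of the 85 tested genes other than the 9 receptors 0 passed the adjusted threshold, and the points lie on both sides of 0.

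The genes most like Thrb over the 8 libraries, by Pearson's r of log2(CPM + 0.5), were Blzf1 (0.984), Gm16867 (0.970), Lyrm7 (0.952), Entpd4 (0.949) and Ms4a1 (0.945). Blzf1 encodes a Golgi protein, Lyrm7 a mitochondrial assembly factor of complex III, Entpd4 a Golgi nucleotidase and Ms4a1 the B cell antigen CD20. Their log2 fold changes were -0.57, -1.90, -1.60, -0.86 and -2.64 in the same order, a difference that the choice of genes like Thrb carries with it. The spans of Gm16867 and Entpd4 overlap on chromosome 14 (69363504 to 69503362 and 69337174 to 69367270), so they need not be separate readings. Gm16867 and Ms4a1 were below 2 CPM in every library labelled Alox15-/- and passed the filter through the WT libraries. With the group means removed, r was 0.796, 0.634, 0.494, 0.703 and 0.436. The points share libraries and depth, and these values describe these 8 libraries only. Ms4a1 is a marker of B cells, whose summed markers, given above, were lower in the libraries labelled Alox15-/-. Single B cell markers did not all follow the sum, with Cd79b, also tested, at 4.07 ± 0.313 CPM in the libraries labelled Alox15-/- and 3.62 ± 1.88 CPM in WT, and Cd79a at 1.41 ± 0.416 and 2.17 ± 1.48 CPM with overlapping groups (SD, n = 4 each). The part of B cells in the level of Thrb was not tested.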

How the data were processed

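The authors deposited 1 table of raw counts per gene symbol from MACE-seq of 8 libraries, cleaned and trimmed per the labels. The submitters' processing notes name Bowtie, edgeR and the build GRCm38, with no versions. The labels' extract protocol names a small RNA kit, whereas the study's methods name a MACE-seq kit. Duplicate removal and use of strand in counting are not given in the sources used here. Of the 28239 symbols 26 have the form of a date and 2 are repeated, and these were kept as listed.

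The fit took the genes that reached 2 CPM in 4 or more libraries (12700, 45% of symbols) and was made with edgeR 4.0.16 in R 4.3.3 (TMM scaling, quasi-likelihood test, two-sided, group as the only term), with Benjamini-Hochberg adjustment over all genes tested and a threshold of 0.05. The common dispersion was 0.021, a biological coefficient of variation of 14.5%. The SE is the size of the log2 fold change divided by the square root of F, and CPM are TMM-scaled. Marker sums were compared by exact permutation (two-sided, scipy 1.17.1), whose smallest possible p of 0.0286 was reached by each of the 8 sums except CD8 (p = 0.0857). After Benjamini-Hochberg adjustment these exact p-values were 0.0327 and 0.0857.

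The members and lists were chosen with earlier results of these data known. Named genes are the members and Rxrg, Alox15, genes that overlap a member, tested genes within 1 Mb of Thrb, the 5 genes most correlated with it and, per list, each gene past the threshold and the 3 with the largest absolute log2 fold change. Genes named below the filter, single cell type markers, Ccr9 and Tsc22d3 were chosen after their values were seen. Some genes that this rule would name are not reported here. Positions are from the GENCODE annotation of GRCm38. The fit was tested on simulated data. Alternatives used DESeq2 1.42.0, limma-voom (limma 3.58.1), other scalings and filters, a replicate block and the omission of each library.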

Additional observations from a re-analysis of the deposited data

Results flagged for a closer look

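In 16 of 177 groups of 4 libraries, over the levels, shares and sums given here except Cd4, 1 library stood apart from the other 3 by Dixon's test at 95%. This test compares the gap to the nearest of them with the group's range. Chance alone gives about 1 in 20 such groups. The levels, shares and sums of the 9 receptors were not among them. In WT the library that stood apart was the highest of its group for Nr4a1 (replicate 4, 419 CPM), Foxp3 (replicate 3, 195 CPM), Gm16867 (replicate 3, 6.96 CPM) and Ncoa2 (replicate 3, 47.5 CPM), and the lowest for the sum of CD8 markers (replicate 2, 21.5 CPM). Among the libraries labelled Alox15-/- it was the highest for Cyp11a1 (replicate 2, 82.0 CPM), Il10 (replicate 2, 26.3 CPM), Spp1 (replicate 2, 4.61 CPM) and Aldh1a3 (replicate 4, 2.16 CPM), and the lowest for Slc16a10 (replicate 3, 10.8 CPM). The remaining groups had counts in a single library and 0 in the other 3. They were Cyp27b1 (0.378 CPM), Cyp24a1 (0.189 CPM) and Cyp26a1 (0.241 CPM) among the libraries labelled Alox15-/-, and Cyp27b1 (0.101 CPM), Hr (0.32 CPM) and Spp1 (0.504 CPM) in WT.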

How the results depend on the processing

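Thrb passed the threshold, with a lower level in the libraries labelled Alox15-/-, under all 17 alternatives, with log2 fold changes from -1.88 to -1.66. The number of receptors with a positive log2 fold change was 3 to 4, and Thra, Rarb and Vdr, all near 0, changed sign under some settings (-0.11 to 0.13, -0.088 to 0.15 and -0.24 to 0.053). Vdr passed the filter in 4 of the 8 fits that leave out a library. With no filter 388 genes passed in place of 158 (298 higher and 90 lower in place of 133 and 25), among them 2 receptors (Thrb and Rxra), 2 other nuclear receptors (Nr4a1 and Nr4a3) and 3 target genes (Dusp1, Spp1 and Txnip). With DESeq2 1 target gene passed (Txnip). Leaving out 1 library gave 86 to 172 genes, with 95, 86 and 93 without Alox15-/- replicates 1, 2 and 3 and 105 without WT replicate 2, where fewer libraries entered the fit. Without WT replicate 4 the log2 fold changes of Nr4a1 and Tnfsf11 changed sign, to 0.049 and 0.19, and those of Slc16a10, Itga4, Bcl3 and Rai1, among others of small size, also changed sign with 1 library left out. Target genes past the threshold ranged from 0 to 1 when a library was left out, with Txnip passing without WT replicate 3. With Spearman's rho 0 of the 5 genes most like Thrb by Pearson's r were among the first 5. Their rho was still 0.881 to 0.905, at tied places 22 or 48, and the cause of the different order was not tested.

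Libraries of the 2 groups share replicate numbers. The correlations of same-numbered libraries' deviations from their group means were 0.0669, 0.179, -0.198 and -0.0168. Those of different-numbered libraries lay between -0.236 and 0.158. These few values cannot show whether the numbers pair the libraries. With a replicate block 146 genes passed, among them 1 receptor, Thrb. Counts limit Thrb and Vdr most, with 8 to 11 counts of Thrb in each library labelled Alox15-/-.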

Other observations

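Among the retinoic acid receptors the mix of counts also differed between the libraries. Rara made up 56.9% to 60.9% of the counts of Rara, Rarb and Rarg in the libraries labelled Alox15-/- and 61.6% to 68.1% in WT, which do not overlap, with means of 59.3% ± 1.71 and 65.1% ± 2.79 (SD, n = 4 each). Rarg made up 10% ± 2.2 and 7.04% ± 0.943, and Rarb 30.7% ± 2.69 and 27.9% ± 3.25 (SD, n = 4 each). Reads of Rarb cannot be told apart from those of Top2b if the counting did not use strand. These shares rest on the same counts as the levels of the receptors and were not tested.

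Several genes that mark the action of these hormones in other tissues were near the limit of detection. The thyroid hormone target Thrsp, a regulator of lipid synthesis in liver, had 0 to 1 counts per library, and the corepressor gene Hr had 0 to 2. The retinoic acid hydroxylase Cyp26a1 had 0 to 1 counts per library, and Stra6, the retinol uptake receptor, had 0 to 13. Hsd11b2, which inactivates glucocorticoids, had 0 to 5, and Nr3c2, the mineralocorticoid receptor, had 3 to 10. These genes were below the filter and were not tested.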
